A study of Homo sapiens with 2 samples.

Results

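The ZNF genes of human chromosome 19 were examined in poly-A RNA from HCT-116 cells, an established colorectal carcinoma line. A gene was included when its symbol was ZNF followed by a number and at most 1 further letter and its isoforms lay at a locus on chromosome 19, which gave 253 genes with 578 isoforms, out of 26257 gene symbols and 63236 isoforms in the table. The rule itself reads only the symbol and the chromosome. The data used here are 1 library of cells given lysophosphatidic acid (LPA), a phospholipid that signals through G protein-coupled receptors, at 10 µM for 24 h after serum starvation, and 1 library of cells without LPA. Both came from HCT-116 cells grown in DMEM with 10% serum and antibiotics, and whether the control cells were also starved is not given in the sources used here. There is no replicate of either condition, so each difference below is between these 2 libraries and carries no p-value and no SD over replicates.

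Most ZNF proteins of chromosome 19 belong to the KRAB zinc finger family. Their tandem C2H2 fingers bind DNA, and the KRAB domain near the amino end recruits the scaffold protein TRIM28 (KAP1), which brings in the histone methyltransferase SETDB1, HP1 proteins and the NuRD deacetylase complex to form repressive chromatin. Many of these proteins bind transposable elements, and their genes arose by repeated local duplication, which left them in clusters along the chromosome. A smaller number of ZNF proteins have fingers without a KRAB domain.

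Coding sequences in GENCODE 29 were translated for 243 of the 253 genes, and a KRAB domain was found by a sequence profile in 208 of them and not in 35. These classes are called KRAB and no KRAB here, and a divergent domain that the profile misses falls in the no KRAB class. The profile found a KRAB domain in 32 of 19101 coding genes outside the zinc finger families by name, and in 362 of 568 within them. The KRAB members had a median of 13 C2H2 fingers and the no KRAB members a median of 9. RefSeq lists 10 members as transcribed pseudogenes.

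Promoter sequences were in the RefSeq table (GRCh38.p14) for 213 of the 253 genes. The 250 bases before the gene start are shown for 4 members that mark the ends of the data: ZNF787, the most abundant, at chr19:56121296-56121545 on the minus strand; ZNF121, with the lowest ratio of LPA to control, at chr19:9584505-9584754 on the minus strand; and 2 KRAB members listed at 0 in both libraries, ZNF667 at chr19:56477346-56477595 on the minus strand and ZNF556 at chr19:2867085-2867334 on the plus strand, which had the most and the fewest CG pairs among such members. Letters run 5′ to 3′ on the strand of the gene, and capitals mark every CG pair.
ZNF787: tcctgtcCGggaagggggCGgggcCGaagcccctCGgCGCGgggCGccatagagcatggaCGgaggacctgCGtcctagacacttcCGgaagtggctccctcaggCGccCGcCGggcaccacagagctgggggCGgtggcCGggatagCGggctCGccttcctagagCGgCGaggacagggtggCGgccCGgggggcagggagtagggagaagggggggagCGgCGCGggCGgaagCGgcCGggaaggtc
ZNF121: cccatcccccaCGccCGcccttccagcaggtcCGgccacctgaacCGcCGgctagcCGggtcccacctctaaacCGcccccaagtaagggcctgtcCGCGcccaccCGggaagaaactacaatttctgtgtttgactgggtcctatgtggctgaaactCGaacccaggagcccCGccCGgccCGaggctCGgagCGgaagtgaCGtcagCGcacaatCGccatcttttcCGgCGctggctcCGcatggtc
ZNF667: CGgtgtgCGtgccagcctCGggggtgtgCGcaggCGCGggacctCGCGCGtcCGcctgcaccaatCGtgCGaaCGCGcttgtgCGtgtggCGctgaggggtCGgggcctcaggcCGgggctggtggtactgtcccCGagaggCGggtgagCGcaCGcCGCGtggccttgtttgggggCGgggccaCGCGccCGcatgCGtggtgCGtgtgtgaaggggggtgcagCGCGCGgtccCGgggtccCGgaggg
ZNF556: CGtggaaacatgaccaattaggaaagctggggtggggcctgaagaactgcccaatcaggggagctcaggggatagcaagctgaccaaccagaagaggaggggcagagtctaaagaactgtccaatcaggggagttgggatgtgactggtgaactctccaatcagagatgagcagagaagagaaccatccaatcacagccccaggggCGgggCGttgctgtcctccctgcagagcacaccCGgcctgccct
The ZNF787 window held 27 CG pairs, ZNF121 22, ZNF667 35 and ZNF556 4. ZNF667, listed at 0, had more CG pairs than the abundant ZNF787. Over all 27305 promoters of the table the median was 11 CG pairs, and over the 213 members it was 16, while 20 or more CG pairs were found in 31.5% of members and 32.1% of all promoters. By level, the median was 14 for the 52 members listed at 0 in both libraries, 16 for the 66 members above 0 and under 1 FPKM, 16 for the 70 members at 1 to 5 FPKM and 20 for the 25 members at 5 FPKM or more. Outside chr19:19668153-24129967, where the median was 8, it was 17 both for the 39 members listed at 0 and for the 89 members at 1 FPKM or more. A CG pair is the substrate of DNA methylation, which was not measured.

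Most of the family was weakly expressed in HCT-116 cells, as were most gene symbols of the table. FPKM, counts of fragments scaled by transcript length and library size, were summed over the isoforms of each gene. On that scale 65 members were listed at 0 in both libraries, 84 had a mean over both libraries above 0 and under 1 FPKM, 77 had 1 to 5 FPKM and 27 had 5 FPKM or more. A mean of at least 1 FPKM was reached by 104 of the 253 members and by 11688 of all 26257 gene symbols. Above 0 in either library were 188 members and 17514 of all symbols. Together the 253 genes summed to 647.03 FPKM in the LPA library and 687.66 FPKM in the control library, which was 0.0912% of all FPKM in the LPA library and 0.0957% in the control library. The 10 most abundant members held 54.4% of the family's FPKM in the LPA library and 52.9% in the control library. A listed 0 need not mean that no transcript was present.

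Levels were higher in the class without a KRAB domain. The 35 no KRAB members had a median of 2.97 FPKM in the LPA library and 3.23 FPKM in the control library, while the 208 KRAB members had medians of 0.511 FPKM in the LPA library and 0.506 FPKM in the control library. All 11 members with a mean of 10 FPKM or more were in the no KRAB class, and the highest KRAB member, by library, reached 9.26 FPKM in the LPA library and 8.45 FPKM in the control library. No member without a GENCODE coding sequence exceeded 0.659 FPKM.

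**Figure D1:**
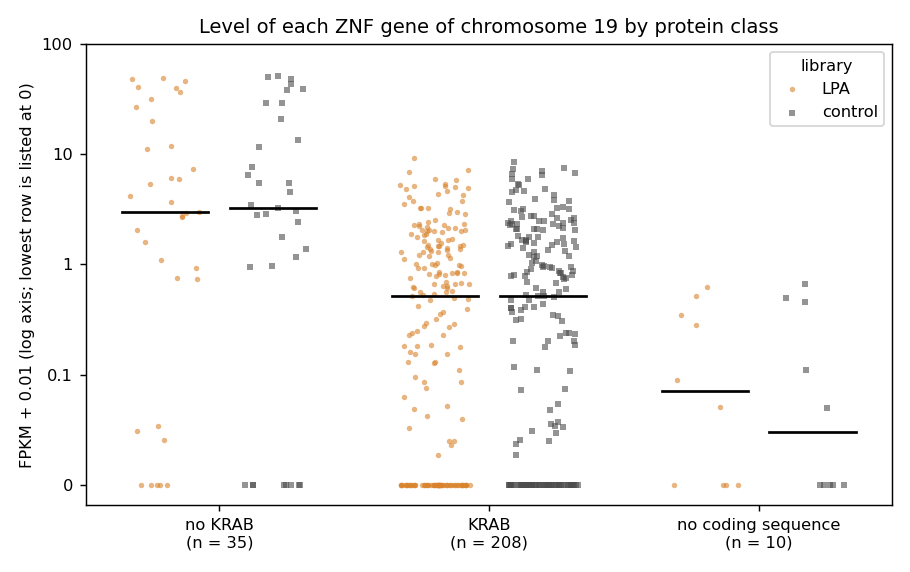
FPKM of each of the 253 genes (vertical log axis, 0.01 added so that genes listed at 0 form the lowest row) in the LPA library (circles, left) and the control library (squares, right), by protein class. Black bars are medians over genes, and the 11 genes above 10 FPKM are all in the no KRAB class.

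Among the most abundant members, ZNF787 had 48.2 FPKM in the LPA library and 51.3 FPKM in the control library. ZNF580, a small protein of 3 fingers linked to responses of vascular cells, had 48.9 and 48.3 FPKM in the LPA and control libraries. ZNF146, also called OZF, a protein made almost only of zinc fingers and reported as overexpressed in colorectal and pancreatic tumours, had 40.7 FPKM with LPA and 50.7 FPKM in the control. Of the 10 most abundant genes, ZNF146 was the 1 with the widest difference (log2 ratio -0.31). ZNF581 had 46.0 and 43.7 FPKM, ZNF428 40.25 and 38.02 FPKM, and ZNF579 32.0 and 29.4 FPKM in the LPA and control libraries. ZNF444, a SCAN domain protein first described as an activator of an endothelial scavenger receptor gene, had 36.8 and 39.1 FPKM in the LPA and control libraries. ZNF358 had 27.0 and 29.2 FPKM, ZNF524, a protein that binds telomeric repeats, 20.1 and 21.0 FPKM, and ZNF574 11.9 and 13.3 FPKM in the LPA and control libraries. Apart from ZNF146, the log2 ratios of these 10 genes lay between -0.15 and 0.12.

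The difference between the libraries was measured for the 104 members with a mean of at least 1 FPKM, as log2((LPA FPKM + 1)/(control FPKM + 1)). This scale understates differences in weakly expressed genes. No member differed by 1.5-fold in either direction, against 1.45% of the 11688 genes tested that were at least 1.5-fold higher and 1.54% that were at least 1.5-fold lower. Those shares stand for 169 and 180 genes, and for 132 and 253 when the libraries were centred on a list of reference genes, which left the members' counts at 0. The reference genes were themselves spread, with log2 ratios from -0.60 (B2M) to 0.56 (ACTB). No member was 2-fold apart either, where the background was 0.351% higher and 0.205% lower. With a pseudocount of 0.1 in place of 1, 8 of the 104 (7.69%) were at least 1.5-fold lower and 0 were higher, against 3.18% and 2.4% of all genes. This background was not matched for level, with a median mean of 2.48 FPKM for members and 9.02 FPKM for all genes. The 8 were ZNF567, ZNF708, ZNF175, ZNF121, ZNF543, ZNF222, ZNF776 and ZNF443.

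The small differences lay mostly on the lower side. Of the 104 members 70 (67.3%) had a log2 ratio below 0 and 34 above, while 49.8% of all genes tested were below 0. The median log2 ratio was -0.10, with quartiles of -0.28 and 0.03, and the median over all genes was 0.0009. At a limit of 0.32 on the log2 scale, added after the values were seen, 16 members (15.4%) were at or below minus the limit and 1 (0.962%) at or above it, against 10.4% and 8.19% of all genes. Genes with transcripts of low GC content were split in a similar way. Under 40% GC the shares were 28.0% lower and 0.488% higher for genes other than members, and 23.1% and 0% for 13 members. At 40 to 45% GC they were 15.3% and 2.78% for other genes, and 23.9% and 0% for 46 members. Without a pseudocount the median member had 0.913 times its control FPKM in the LPA library, from 0.586 to 1.49. In bulk RNA, fewer cells that express a gene and less of its RNA per cell cannot be told apart.

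Set beside genes of like level, members with a mean of 1 to 5 FPKM had a median log2 ratio of -0.13 (53 of 77 below 0), against -0.02 for all 3926 genes at that level, of which 54.2% were below 0. Members at 5 FPKM or more had a median of -0.07 (17 of 27 below 0), against 0.01 for all 7762 such genes. The 183 ZNF genes on other chromosomes at 1 FPKM or more had a median of -0.04, with 59.6% below 0. The other 745 genes of chromosome 19 lay the other way, with a median of 0.06 and 40.1% below 0. With 1 library per condition, whether these sets differ from one another could not be tested.

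**Figure D2:**
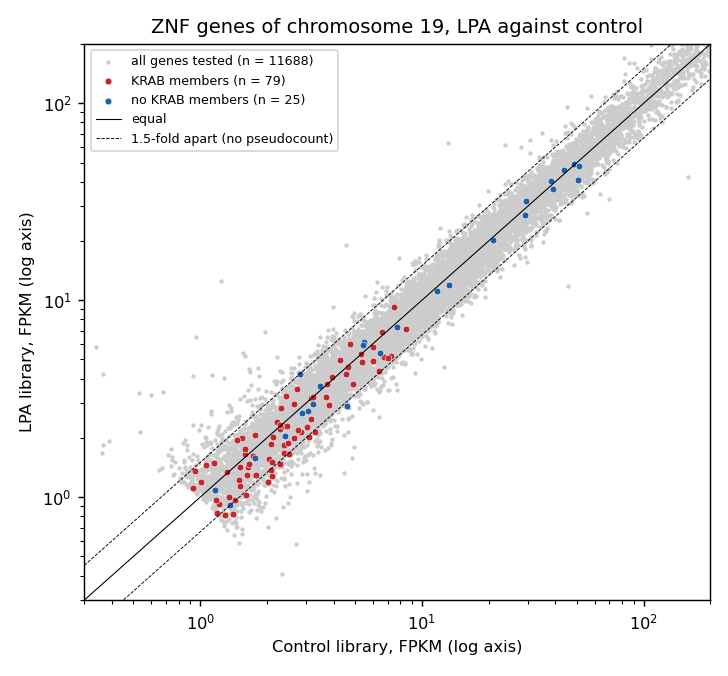
FPKM in the LPA library against the control library (both log axes) for the 11688 genes tested (grey) and for the 79 KRAB and 25 no KRAB members. Genes beyond the limits of the axes, none of them members, are not drawn. The solid line marks equal values and the dashed lines a 1.5-fold difference without a pseudocount; the members follow the solid line and more of them lie below it (70) than above it (34).

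At the lower end, ZNF121, a no KRAB member at chr19:9565728-9584533 (hg38), had 2.91 FPKM in the LPA library and 4.58 FPKM in the control library, and the lowest log2 ratio (-0.51). ZNF627 followed with 4.36 and 6.43 FPKM in the LPA and control libraries (-0.47), and ZNF567 with 1.19 and 2.03 FPKM (-0.47). ZNF175, also called OTK18 and known as a repressor of viral transcription in HIV-infected macrophages, had 1.29 FPKM with LPA and 2.10 FPKM in the control (-0.44). The more abundant ZNF227 and ZNF480 had 5.21 and 5.11 FPKM in the LPA library, and 7.28 and 7.02 FPKM in the control library. Of these lowest members, all but ZNF121 were in the KRAB class.

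The remaining genes among the 12 lowest spanned log2 ratios of -0.46 to -0.38. ZNF222 had 2.13 and 3.30 FPKM in the LPA and control libraries, ZNF181 2.03 and 3.08 FPKM, ZNF776 1.47 and 2.29 FPKM and ZNF616 1.66 and 2.51 FPKM. ZNF708 had 0.824 and 1.40 FPKM and ZNF845 1.37 and 2.08 FPKM in the LPA and control libraries. ZNF222 and ZNF181 share over 20% of their 31-base stretches with another annotated gene (20.2% and 26.8%), so the split of reads is uncertain there.

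At the upper end, ZNF473, also called ZFP100, which takes part in the 3′ end processing of histone messenger RNA with the U7 particle, had 4.21 FPKM in the LPA library and 2.82 FPKM in the control library (log2 ratio 0.45). It is in the no KRAB class because the profile found no such domain in it. It was the 1 member above 0.32 on the log2 scale. ZNF266 had 3.24 and 2.45 FPKM, ZNF584 5.98 and 4.73 FPKM, ZNF77 3.53 and 2.73 FPKM and ZNF317 9.26 and 7.45 FPKM in the LPA and control libraries, with log2 ratios of 0.28 to 0.30. The gap between ZNF473 and ZNF266 was of the size of their counting SDs (0.13 and 0.16). Without a pseudocount the ratio was 1.49 for ZNF473, 1.43 for ZNF177 and 1.38 for ZNF44.

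The other genes among the 12 highest had log2 ratios of 0.19 to 0.28. ZNF44 had 1.46 and 1.06 FPKM in the LPA and control libraries, ZNF814 1.94 and 1.47 FPKM, ZNF180 2.01 and 1.54 FPKM and ZNF211 2.84 and 2.31 FPKM. ZNF805 had 1.49 and 1.15 FPKM and ZNF57 4.99 and 4.25 FPKM in the LPA and control libraries. ZNF177, at 1.36 FPKM with LPA and 0.949 FPKM in the control, shares 96.5% of its 31-base stretches with the read-through gene ZNF559-ZNF177, and ZNF814 shares 21.4% with ZNF587B, so both values are uncertain.

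**Figure D3:**
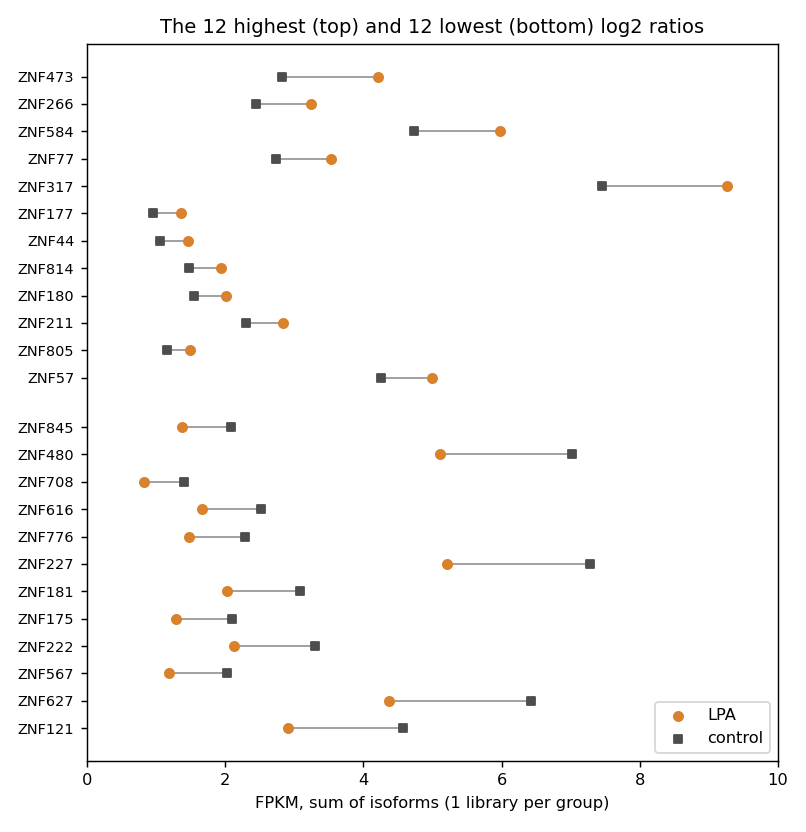
FPKM in the LPA library (circles) and the control library (squares) for the 12 members with the highest and the 12 with the lowest log2 ratio, ordered by ratio. The gaps are small: the widest ratios are -0.51 for ZNF121 and 0.45 for ZNF473.

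Depth sets a limit on the precision of these values. From the lowest FPKM in single-isoform genes, 1 fragment was worth 0.0634 FPKM × kb in the LPA library and 0.0598 in the control library, or about 15800000 and 16700000 fragments in all. Fragments were estimated from the FPKM of the gene and the length of its most abundant isoform alone. Such estimates are rougher where the isoforms of a gene differ in length. The 104 members then rested on a median of about 145.3 fragments per library, and counting alone gives a median SD of 0.17 for the log2 ratio of 1 member, without a pseudocount. ZNF121 rested on about 74.1 fragments in the LPA library and 123.7 in the control library, and its counting SD was 0.21. ZNF473 rested on about 307.9 and 218.9 fragments (counting SD 0.13), and ZNF146 on about 2429 and 3204 fragments (0.04), in the LPA and control libraries. These SDs cover counting error only, so variation between cultures comes on top and was not measured.

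Of the 24 members listed for roles described in the literature, 8 were tested. ZNF274, a KRAB and SCAN protein that binds the 3′ ends of other ZNF genes and recruits SETDB1 to them, had 2.99 FPKM in the LPA library and 2.65 FPKM in the control library (log2 ratio 0.13). ZNF350, also called ZBRK1, a partner of BRCA1 in repression of GADD45A, had 1.41 and 1.65 FPKM in the LPA and control libraries (-0.13). ZNF507 had 2.73 and 3.08 FPKM and ZNF134 2.04 and 2.41 FPKM. The others of the 8, ZNF146, ZNF175, ZNF444 and ZNF580, are given above, and ZNF175 had the lowest ratio of them.

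Another 9 of these 24 were above 0 but under 1 FPKM, and 7 were listed at 0 in both libraries. ZNF91, which represses SVA retrotransposons, had 0.508 FPKM with LPA and 0.940 FPKM in the control, and ZNF675, which limits TRAF6 signalling, 0.781 and 0.857 FPKM in the LPA and control libraries. ZNF93, a repressor of LINE-1 elements, the imprinted gene ZNF331, the neural gene ZNF536 and ZNF382, ZNF582 and ZNF671, which are often silenced by promoter methylation in tumours, were among those listed at 0. Genes of this group below 1 FPKM were named after their values were seen.

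Position on the chromosome was described by starting a new group at each gap of 1 Mb or more between members, which gave 16 groups, 7 of them with at least 5 tested members. The group at chr19:19668153-24129967, from ZNF101 to ZNF254, had the lowest expression of the large groups: 20 of its 36 members were listed at 0 in both libraries, 6 reached 1 FPKM, and it summed to 12.4 FPKM in the LPA library and 14.5 FPKM in the control library. Its 27 promoters with sequence had a median of 8 CG pairs, and its transcripts had a median GC content of 37.6%. The group at chr19:55476332-58489533, from ZNF628 to ZNF446, held 60 members, of which 32 reached 1 FPKM and 11 were listed at 0, with a median of 18.5 CG pairs in 54 promoters. It summed to 302.91 FPKM in the LPA library and 306.15 FPKM in the control library.

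The median log2 ratio also differed among the position groups, and the part of position in this was not tested. In groups with fewer than 5 tested members it ranged from -0.38 (ZNF302 to ZNF792, 2 tested) to 0.45 (ZNF473 alone). All 7 groups with at least 5 tested members had a median below 0. It was -0.28 in the group at chr19:11483427-12629862 (9 of 11 below 0), -0.28 in the group that starts with ZNF146 (4 of 6), and -0.25 in the group from ZNF175 to ZNF331 (13 of 16). In the group from ZNF575 to ZNF296 it was -0.16 (9 of 12), and in the group from ZNF101 to ZNF254 -0.23 (5 of 6). It was nearer 0 in the group from ZNF557 to ZNF846 (-0.07, 6 of 11) and in the group from ZNF628 to ZNF446 (-0.06, 18 of 32).

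**Figure D4:**
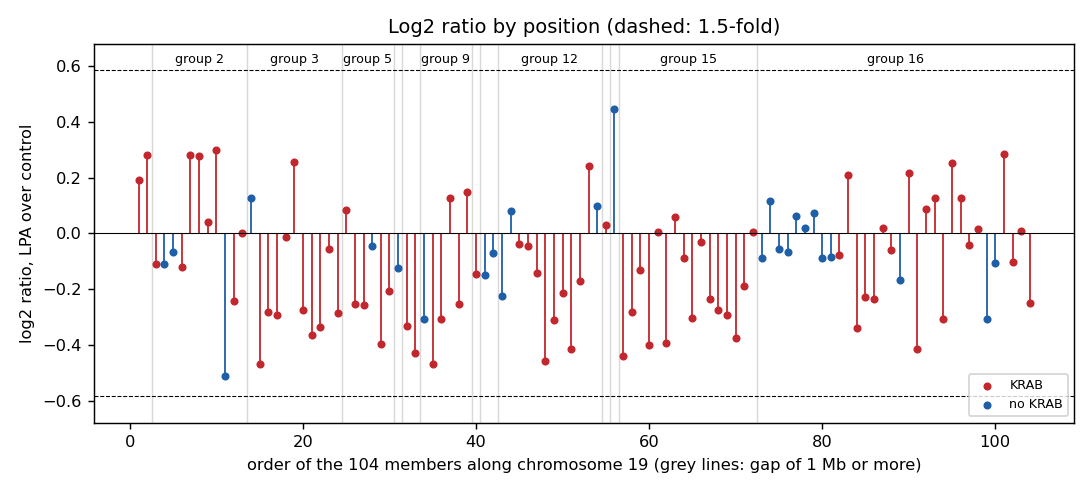
Log2 ratio of LPA over control for the 104 tested members in their order along chromosome 19, coloured by protein class. Numbers name the position groups in order, grey lines mark gaps of 1 Mb or more and dashed lines 1.5-fold, which no member reaches; groups 3, 5, 9, 12 and 15 hold mostly negative ratios.

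By protein class, the 79 tested KRAB members had a median log2 ratio of -0.14, with 15 past 0.32 on the lower side and 0 on the higher side. The 25 no KRAB members had a median of -0.07, with ZNF121 past that limit on the lower side and ZNF473 on the higher side. Of all genes tested, 10.4% were past it on the lower side and 8.19% on the higher side. The order of the classes depended on the level filter: over all members above 0 in either library, the medians were -0.04 for KRAB and -0.07 for no KRAB. Below 0 were 53 of the 79 KRAB members and 17 of the 25 no KRAB members. The 28 members with 8 or fewer fingers had a median of 0.004 (13 below 0), the 29 with 9 to 12 fingers -0.13 (23 below 0) and the 47 with 13 or more -0.15 (34 below 0).

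GC content moved with the ratio, in the members and in all genes. The 104 tested members had a median GC content of 43.4% and all genes 50.2%, and the KRAB members had 42.6% and the no KRAB members 64.8%. Across the members the Pearson correlation of GC content with the log2 ratio was 0.27 and Spearman's rho 0.40, and across 11152 genes they were 0.20 and 0.30. Genes within 1 library pair share depth and library preparation, so these describe the libraries only. Below 40% GC the members' median was -0.21 (n = 13) and that of other genes -0.18 (n = 1434). At 40 to 45% GC it was -0.24 for 46 members and -0.09 for 2157 other genes, and at 45 to 50% it was -0.01 for 20 members and 0.04 for 1818 other genes. At 50 to 55% the 3 members lay higher than other genes (0.13, against 0.09 for 1689 genes), and at 55% or more it was -0.07 for 22 members and 0.05 for 3950 other genes. After adjustment of every gene for GC content and transcript length, the members' median was -0.05, with 61.5% below 0. Over all 11152 genes so adjusted the median was 0.004, with 49.2% below 0. The adjusted medians were -0.06 for KRAB and -0.05 for no KRAB members. The part of GC content in the difference was not tested beyond this.

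**Figure D5:**
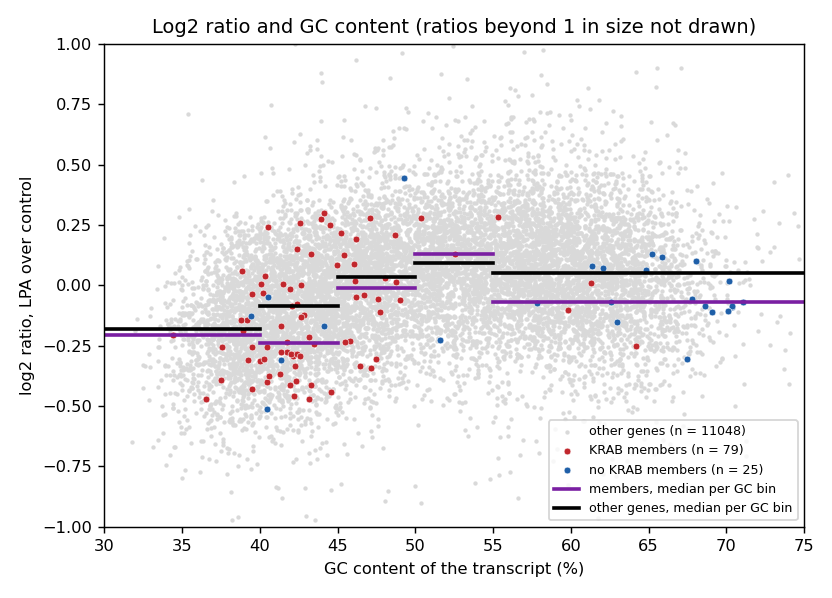
Log2 ratio of LPA over control against transcript GC content (percent) for the 104 tested members and for other genes with a GC value; ratios beyond 1 in size are not drawn. Bars give the median per GC bin for members (purple) and other genes (black); at 40 to 45% GC they lie at -0.24 and -0.09.

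Reads that could come from a near-identical relative make a value uncertain, and without strand marks reads of overlapping or antisense genes cannot be told apart. Of the 104 tested members 23 shared a locus with another symbol or at least 20% of their 31-base stretches with another gene, among them ZNF320 with ZNF468 (93.3%) and ZNF587 with ZNF417 (74.6%). The share runs 1 way, from 1 transcript of the member to all transcripts of the other gene. ZNF468 itself had its highest share with ZNF28 (16.9%), so the match of ZNF320 need not mean a near-identical relative. Those 23 had a median log2 ratio of -0.09 (14 below 0) and the other 81 a median of -0.11 (56 below 0).

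At the level of isoforms, the lower and upper bounds that the authors deposited with each FPKM, at a confidence level not stated in the file, did not overlap between libraries for the leading isoform of 5 of the 104 members. For this count the leading isoform was the one with the highest FPKM summed over both libraries. The isoform was higher in the LPA library for ZNF211 and ZNF805 (background 1.43% of genes) and lower for ZNF627, ZNF430 and ZNF837 (background 1.34%). Over all 116 member isoforms with a mean of at least 1 FPKM the balance was the other way: the bounds were apart with the LPA library higher for 4 (3.45%, background 2.48%), in ZNF211, ZNF473, ZNF83 and ZNF627, and lower for 1 (0.862%, background 2.12%), in ZNF627. The ZNF473 isoform NM_015428 had 2.07 FPKM with LPA and 0.231 FPKM in the control. For the counts that follow, the leading isoform was the highest in each library by itself. It differed between the libraries in 18 of the 54 tested members with more than 1 isoform (33.3%). The share was 15.8% of 6664 such genes in the whole table. Among genes with a mean of 1 to 5 FPKM it differed in 13 of 40 members and in 523 of 2092 genes over the whole table. The gap between members and background was thus narrower at 1 to 5 FPKM only. The remaining genes, at 5 FPKM or more, had a wider gap, with few members in that class. In 13 of the 18 members, 24.1% of the 54, both leading isoforms had at least 1 FPKM, against 13.2% of the 6664 genes. That background was not matched for level. In ZNF627, NM_001290084 had 2.29 FPKM with LPA and was listed at 0 in the control, while NM_145295 had 2.07 FPKM with LPA and 6.22 FPKM in the control. In ZNF83, NM_018300 had 2.74 and 0.439 FPKM and NM_001105552 0.784 and 2.50 FPKM in the LPA and control libraries. In ZNF837, NM_138466 led with LPA (1.58 FPKM) and the non-coding NR_049780 in the control (1.77 FPKM). The isoforms of these pairs are close in length, at 2853 and 2864 nt in ZNF627, 2601 and 2728 nt in ZNF83, and 1931 and 2033 nt in ZNF837. How the estimate divides fragments among such transcripts was not tested.

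In ZNF607, NM_032689 had 1.44 and 0.139 FPKM in the LPA and control libraries while the gene had 2.06 and 1.76 FPKM. In ZNF317, NM_020933 had 5.95 and 3.51 FPKM, and in ZNF266, NM_006631 had 1.79 and 0.801 FPKM, in the LPA and control libraries. ZNF562 (3.17 FPKM with LPA, 3.16 FPKM in the control), ZNF761 (3.24 and 3.22 FPKM), ZNF559 (4.08 and 3.94 FPKM), ZNF283 (2.22 and 2.30 FPKM), ZNF558 (4.85 and 5.36 FPKM), ZNF823 (2.949 and 3.805 FPKM) and ZNF146 completed the set. The bounds of both leading isoforms did not overlap in ZNF627 and ZNF837.

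The partners of the KRAB proteins spanned a wide range of levels, with mean FPKM over both libraries of 1.29 for DNMT3A, a DNA methyltransferase, to 471.9 for SUMO2. TRIM28, which also lies on chromosome 19, had 270.8 FPKM in the LPA library and 253.3 FPKM in the control library. SETDB1 had 9.28 and 8.75 FPKM, and the HP1 genes CBX1, CBX3 and CBX5 had 76.7, 192.0 and 8.14 FPKM with LPA and 86.8, 254.0 and 8.03 FPKM in the control. All 27 corepressor genes found were tested, 16 were above 0 and 11 below with a median of 0.06, and none was 1.5-fold apart. The widest were UHRF1, which guides maintenance DNA methylation (26.5 FPKM with LPA, 18.2 FPKM in the control), the chromatin remodeller SMARCAD1 (10.07 and 14.05 FPKM) and CBX3. The nucleosome remodeller CHD4 of the NuRD complex had 43.5 and 36.2 FPKM, DNMT1 22.2 and 21.3 FPKM, and the SUMO gene SUMO2 407.6 and 536.1 FPKM in the LPA and control libraries.

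Of 18 zinc finger genes found on chromosome 19 under other names, 4 were tested. ZSCAN5A had 2.18 and 1.29 FPKM, ZSCAN22 1.53 and 1.06 FPKM, ZBTB7A 9.65 and 11.1 FPKM and ZBTB45 10.26 and 11.96 FPKM in the LPA and control libraries. PEG3, an imprinted gene, and 7 others were listed at 0 in both. As a check of the cell line, EPCAM had 223.2 and 220.4 FPKM, KRT8 1507 and 1208 FPKM, KRT19 1268 and 988.9 FPKM, CDH1 11.4 and 10.4 FPKM and CDX2 10.5 and 9.41 FPKM in the LPA and control libraries. KRT18, at 741.4 and 442.2 FPKM in the LPA and control libraries, was the 1 epithelial marker past 1.5-fold. LGALS4 had 0.29 and 0.203 FPKM, and the brush border gene VIL1 was listed at 0 in both. The 5 immune markers summed to 3.14 and 2.97 FPKM, the 6 fibroblast markers to 4.32 and 5.78 FPKM and the 4 endothelial markers to 0.121 and 0.105 FPKM in the LPA and control libraries. COL1A1 made up 4.28 and 5.75 FPKM of the fibroblast sums, and PTPRC, COL1A2, DCN and LUM were listed at 0 in both libraries. The part of such cells in the results was not tested.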

How the data were processed

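Poly-A RNA libraries of HCT-116 cells with and without LPA (1 each, grouped by title) were made with Trizol and the TruSeq V2 kit, per the labels' protocols; this kit does not mark strand. Per the submitters' processing notes, the tools included Cuffdiff 2.2.0, Cufflinks, TopHat2 2.0.12 and bcl2fastq 2.16.0.10, and the build was hg38; the settings used were not found in the labels. The authors deposited FPKM per isoform with bounds, per the file headers. The 16 isoforms without an estimate (status HIDATA) were treated as missing; none belonged to a member.

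FPKM were summed per symbol, and genes with a mean of at least 1 FPKM were compared on log2(FPKM + 1). Members, lists and thresholds were chosen with earlier results of these data known. No test was possible with 1 library per group. Named genes are the 12 highest and 12 lowest ratios, the 10 highest levels, changed leading isoforms and listed roles. GC content, KRAB domains (pyhmmer 0.12.3, E-value 0.001, 36-residue profile built from 273 genes) and 31-base stretches came from GENCODE 29 in place of RefSeq proteins. The ratio code was tested on simulated data, with planted changes far larger than those of the members, in genes at 5 FPKM or more. This checks the code only and does not bear on differences as small as those of the members. Reference coordinates are GRCh38; table loci are hg38, starts 1-based. Alternatives included pseudocounts, filters, scalings, isoform choices and GC adjustment. GC values covered all 104 tested members.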

Additional observations from a re-analysis of the deposited data

How the results depend on the processing

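Except in the settings given next, the counts of members at least 1.5-fold or 2-fold apart were 0 in both directions under every alternative. With a pseudocount of 0.1, 8 were at least 1.5-fold lower, 7.69% against 3.18% of all genes, a background not matched for level. The other exception was the leading isoform standing for the gene. There 3 of 95 were higher and 4 lower at 1.5-fold, 3.16% and 4.21% against 3.96% and 4.24% of all genes, and 1 was higher and 1 lower at 2-fold, 1.05% each against 1.07% and 1.09%, so these shares were near the background. The median log2 ratio of the members stayed below 0 under all 13 alternatives. It moved to -0.0505 with a pseudocount of 5, to -0.0677 at a mean of 5 FPKM or more, to -0.0499 without a filter and to -0.0547 once GC content and transcript length were adjusted for. The number of members below 0 was 17 of 27 at a mean of 5 FPKM or more and 117 of 188 without a filter, which follows from the number of genes tested. Centring on the reference genes put the median of all genes at -0.05, with 76.0% of members and 57.9% of all genes below 0. The same centring turned the split of all genes at 1.5-fold to 132 higher and 253 lower, against 169 and 180 as deposited. Of 47 named members, the sign of the ratio changed for 4 with reference centring, 3 with upper quartile scaling and 1 with GC adjustment, and for 7 of 42 with the leading isoform. The causes were not tested. Depth limits members near 1 FPKM most: the fewest fragments behind a tested member in 1 library were about 35.9. No paired analysis was possible because each group has 1 library.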
